A study of Mus musculus with 24 samples.

Results

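NF-κB subunits and their inhibitors were followed as 10 genes, chosen by symbol: the subunit genes Nfkb1, Nfkb2, Rela, Relb and Rel, the IκB genes Nfkbia, Nfkbib and Nfkbie, the kinase gene Ikbkb and the feedback gene Tnfaip3. All 10 were found among the 12091 genes of the deposited table. RNA sequencing values were analysed for 24 samples in 4 experiments, each with 3 control and 3 PTN-inhibited samples, and each comparison asked how expression differed when pleiotrophin (PTN) was blocked or knocked down. 4T1 mammary carcinoma cells formed tumors in the mammary fat pad of female BALB/c mice of 8 wk of age, and *MMTV-PyMT* tumors arose in female FVB/N mice whose mammary tumor virus promoter drives the polyoma middle T antigen, treated from 8 wk of age. Mice received the control antibody C44 or the anti-PTN antibody 3B10 at 15 mg/kg, with 2 doses per week. E0771 is a C57BL/6 mammary adenocarcinoma line and E0771-LG was derived from a lung metastasis of it. Cells of both lines carried a viral vector, either pLKO.1-puro with a sequence against EGFP (shCtrl) or 1 shRNA construct against PTN (shPTN), and were kept in puromycin for 6 wk. The shPTN and shCtrl populations were infected and selected separately, so differences that arose in selection cannot be told apart from the effect of the shRNA. The study's methods speak of 3 biological replicates, and the labels do not say whether the replicates of a cell group came from separate infections, so the p-values for cells measure the spread between these samples.

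NF-κB is a family of dimeric transcription factors held in the cytoplasm by IκB proteins. In the canonical route the kinase IKKβ marks IκB for degradation and dimers of RelA with p50, the product of Nfkb1, enter the nucleus, whereas the alternative route processes p100, the product of Nfkb2, and releases dimers with RelB. Nfkbia, Tnfaip3, Nfkb2 and Relb are themselves known NF-κB target genes, and in mammary tumors the pathway is known for driving cytokine and chemokine genes.

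In E0771 cells, 5 of the 10 genes fell with shPTN: Nfkb1, Nfkb2 and Relb among the subunits, and Nfkbia and Nfkbib among the inhibitors, where 11.7% of all genes fell, and without E0771shCtrl replicate 3 only Relb and Nfkbia were called. In E0771-LG cells, Nfkb1 and the kinase gene Ikbkb fell and Nfkbia rose, where 22.1% of all genes fell and 24.3% rose, and without E0771-LGshPTN replicate 2 only Nfkb1 was called. Nfkbia therefore changed in opposite directions in these lines, and its effect differed between them by 0.98 ± 0.17 (SE) on the log2 scale. None of the 10 genes passed the test in 4T1 or *MMTV-PyMT* tumors, and neither did any other gene (0%).

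Values of the *MMTV-PyMT* and cell samples are log2 CPM (reads scaled to library size), and whole reads could be recovered from them, 15.6 M to 21.1 M on genes per sample. The 4T1 values are log2 of an abundance already normalized for gene length, with unknown depth, so levels of 4T1 tumors are not set against the others. Differences are log2 fold changes of the PTN-inhibited over the control samples, tested by limma within each experiment, and a gene is said to rise or fall where its adjusted p is under 0.05. The test took genes with a value off the log scale of 1 or more above each sample's floor in 3 or more samples, and all 10 genes were tested in every comparison.

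Ptn, the gene targeted by the shRNA, was examined first. In E0771 cells it was at 2.90, 2.18 and 2.28 log2 CPM in the shCtrl samples (replicates 1, 2 and 3 in that order, as throughout) and at −0.63, 0.25 and 0.53 in the shPTN samples. In E0771-LG cells it was at 3.65, 4.51 and 3.74 with shCtrl and at 1.42, 0.98 and 1.38 with shPTN. No shPTN sample reached the level of any shCtrl sample of its line, so the target followed the labels. The log2 fold changes were −2.40 ± 0.37 (SE, adjusted p = 0.00159 by limma) in E0771 and −2.71 ± 0.28 (SE, adjusted p = 6.3e-05 by limma) in E0771-LG cells, and they rest on 12, 21 and 22 reads and on 56, 35 and 45 reads in the shPTN samples. In *MMTV-PyMT* tumors Ptn was at 2.80, 2.73 and 3.42 with C44 and at 3.28, 2.95 and 4.22 with 3B10. In 4T1 tumors its log2 values were −0.19, −0.65 and −0.12 with C44 and −0.76, 0.86 and 0.37 with 3B10, under the level needed for the test. The antibody acts on the protein, so these tumor values check no label.

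The marker genes of the labelled tissues were examined as well. All 6 epithelial markers were detected in every tumor. In the cells, Krt8 was the most abundant of them, at 88.4 to 107 CPM in E0771, and Krt18, Krt19, Cdh1 and Cldn4 were under 1 CPM in every E0771 sample, so most of the epithelial list was absent from this line. The leukocyte genes Ptprc, Cd53 and Cd52 were under 1 CPM in all 12 cell samples, as were Cd3e, Cd3g and Cd8a. Cd3d, another marker of T cells, was above 1 CPM only in E0771-LGshPTN, at 1.18, 1.99 and 1.26 CPM. The other leukocyte markers Itgb2, Coro1a and Laptm5 were detected in the cells.

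Each count of changed genes has to be read against the share of all genes that passed the same test. In E0771 cells, 5 of 10 genes fell, against 11.7% of the 10394 genes tested, and 0 rose, against 8.89%. Without E0771shCtrl replicate 3, 2 of 10 genes and 643 of 10364 genes fell, so the count and its background were both lower. Without E0771shPTN replicate 3 these were 3 of 10 and 744 of 10334, and without E0771shCtrl replicate 2 they were 3 of 10 and 670 of 10364. The 5 that fell were also those whose shPTN and shCtrl groups lay apart in this direction, against 22.5% of all genes, and none of the 10 had all shPTN samples above, against 16.8%. The median log2 fold change was −0.31 over the 10 genes and −0.03 over all genes tested. In E0771-LG cells, 2 of 10 genes fell, against 22.1% of 10405, and 1 rose, against 24.3%. Without E0771-LGshPTN replicate 2, 1 of 10 genes fell and 0 rose, and 1586 of all 10315 genes fell and 1620 rose. These counts are no larger than those shares, so for E0771-LG cells the number of changes is not a result about NF-κB genes, and what follows concerns which of them changed. The groups lay apart for 5 genes that were lower with shPTN (Nfkb1, Nfkb2, Relb, Ikbkb and Tnfaip3), against 26.7% of all genes, and for Nfkbia and Nfkbib, which were higher, against 30.5%. The median was −0.18 over the 10 genes and 0.05 over all genes.

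In tumors 0 of the 10 genes were called by limma, in a setting where 0% of all genes were called in either model. At an unadjusted p under 0.05, 6.27% of the 11467 genes in 4T1 and 2.70% of the 11361 genes in *MMTV-PyMT* tumors passed, and 0 of the 10 did in either. Over the 10 genes the median was 0.01 in 4T1 and −0.10 in *MMTV-PyMT*, beside 0.01 and 0.05 over all genes tested. Nfkb1 in *MMTV-PyMT* tumors was the single case where the groups lay apart, against 2.27% of all genes in that direction.

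**Figure D1:**
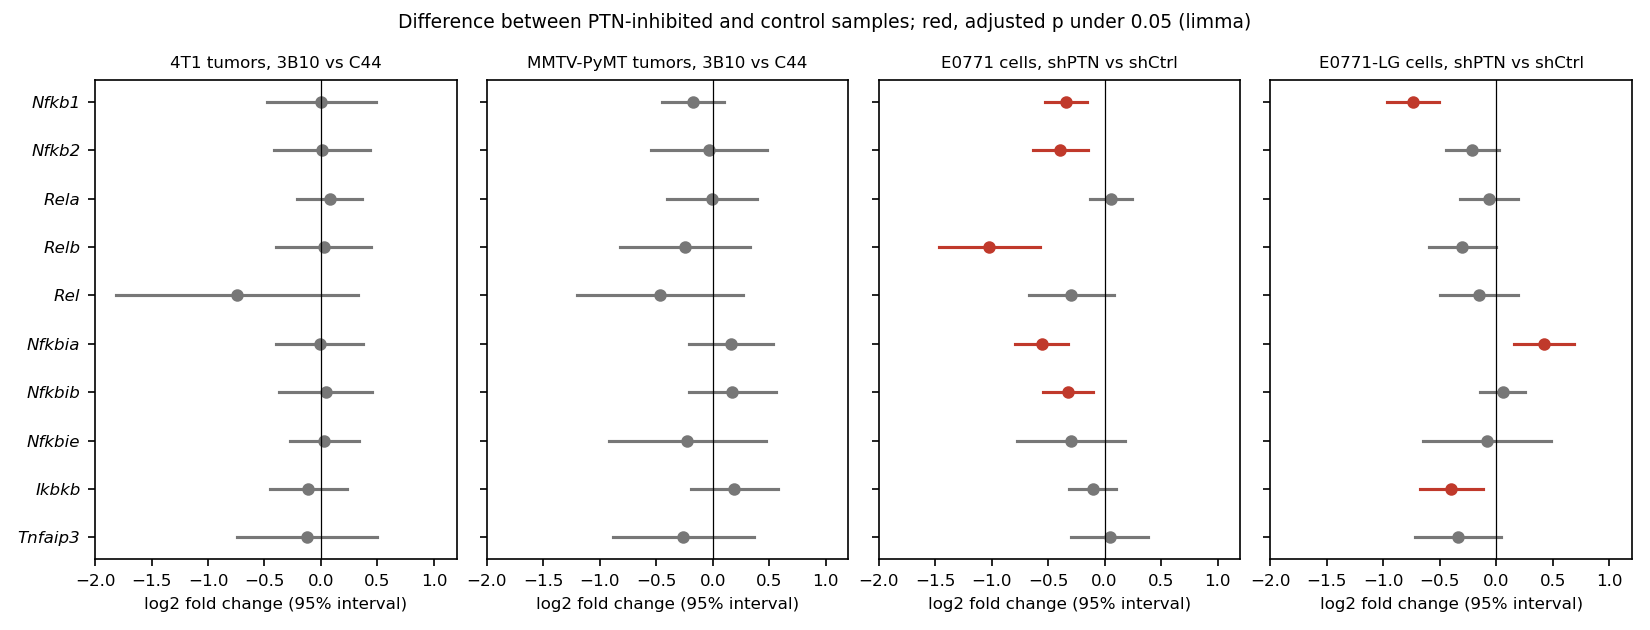
Log2 fold change of each of the 10 genes (x axis, point) with its 95% interval (line) in the 4 experiments, PTN-inhibited over control, from 3 samples per group. Red marks an adjusted p under 0.05 by limma: 0 genes in the tumors, 5 in E0771 cells, all below zero, and 3 in E0771-LG cells, where Nfkbia lies above zero.

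Nfkb1 encodes p105, the precursor of the p50 subunit, and is found at chr3:135584655-135691547, minus strand (ENSMUSG00000028163, GRCm38). With shCtrl in E0771 cells it was at 7.27, 7.12 and 7.16 log2 CPM, and with shPTN at 6.76, 6.81 and 6.94. In E0771-LG cells it was at 7.44, 7.70 and 7.56 with shCtrl and at 6.95, 6.80 and 6.72 with shPTN. The groups did not overlap in either line, and the shPTN samples of both lines lay at a similar level. In E0771 it fell to 78.9% of control, by −0.34 ± 0.09 (SE, adjusted p = 0.0175 by limma). In E0771-LG it fell to 59.8%, by −0.74 ± 0.11 (SE, adjusted p = 0.000336 by limma), and this call was kept in every alternative run (adjusted p from 6.87e-05 to 0.00434). The fall in E0771 was no longer past the threshold without E0771shCtrl replicate 1 (adjusted p = 0.0593) or 3 (0.0633), or in 1 fit over all 24 samples (0.148), within a range of 0.0141 to 0.148 over its alternatives.

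In *MMTV-PyMT* tumors Nfkb1 was at 7.04, 7.05 and 7.01 log2 CPM with C44 and at 6.74, 6.93 and 6.90 with 3B10. Every 3B10 tumor lay below every C44 tumor, by a mean of −0.17 ± 0.12 (SE), and the difference was not called (adjusted p = 1.00 by limma, unadjusted p = 0.182). In 4T1 tumors the log2 abundance was 6.56, 6.71 and 5.92 with C44 and 6.30, 6.48 and 6.43 with 3B10. The 3B10 tumors lay within the range of the C44 tumors, of which replicate 3 was the lowest.

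Relb encodes the partner of p52 in the alternative route and is found at chr7:19606217-19629438, minus strand (ENSMUSG00000002983). E0771 cells had it at 4.58, 5.29 and 5.09 log2 CPM with shCtrl and at 4.21, 3.62 and 4.08 with shPTN. All shPTN samples lay below all shCtrl samples. This was the largest fall among the 10 genes in E0771, to 49.3% of control or −1.02 ± 0.20 (SE, adjusted p = 0.00602 by limma), and it stayed past the threshold in every alternative run, with adjusted p between 0.00327 and 0.0321. In E0771-LG cells Relb was at 5.38, 5.65 and 5.18 with shCtrl and at 5.09, 5.09 and 5.11 with shPTN. The shPTN samples were nearly equal to each other and all lay just below the lowest shCtrl sample. The difference was −0.30 ± 0.13 (SE) and was not called (adjusted p = 0.0850 by limma), but passed the threshold without E0771-LGshCtrl replicate 3 (adjusted p = 0.0449) and with median-of-ratios scaling (0.0494), within a range of 0.0449 to 0.293. In tumors Relb differed by 0.03 ± 0.18 (SE) in 4T1 and by −0.24 ± 0.25 (SE) in *MMTV-PyMT*, with overlapping groups in both.

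Nfkb2, which encodes p100, is found at chr19:46304320-46312385, plus strand (ENSMUSG00000025225). Over all annotated transcripts 11.6% of its exon bases are shared with AC114539.1 and 6.52% with Psd on the opposite strand, and the strand used in counting is not given in the sources used here, so reads from the overlaps cannot be told apart. In E0771 cells Nfkb2 was at 7.23, 7.61 and 7.60 log2 CPM with shCtrl and at 7.16, 7.06 and 7.04 with shPTN. The groups did not overlap, although shCtrl replicate 1 lay close to the shPTN samples. The fall was −0.39 ± 0.11 (SE, adjusted p = 0.0271 by limma). It was not past the threshold without E0771shCtrl replicate 2 (adjusted p = 0.113) or 3 (0.122) or E0771shPTN replicate 3 (0.108), nor with no filter (0.0577) or in the fit over 24 samples (0.203), within a range of 0.00547 to 0.203. In E0771-LG cells Nfkb2 was at 7.79, 8.05 and 7.90 with shCtrl and at 7.54, 7.77 and 7.78 with shPTN. The shPTN samples again lay below the shCtrl samples, by −0.21 ± 0.10 (SE), and this was not called (adjusted p = 0.118 by limma), though it was without E0771-LGshCtrl replicate 1 (adjusted p = 0.0324, range 0.0324 to 0.414). In tumors Nfkb2 differed by 0.01 ± 0.18 (SE) in 4T1 and by −0.03 ± 0.22 (SE) in *MMTV-PyMT*, with overlapping groups in both.

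Because several of these genes moved together in E0771 cells and NF-κB is known to act on some of them, the stretch from 250 bases before to 50 after the transcription start was taken from RefSeq (GRCm38.p6) where the table held the gene. Of the 10 genes, 7 had entries, with 3 windows for Nfkb2, 2 for Tnfaip3 and 1 each for Rela, Rel, Nfkbia, Nfkbib and Nfkbie. A match to the 10-base κB consensus, searched on both strands, was present in 7 of these 10 windows, against 8.46% of all 32851 windows, or in 5 of the 7 genes. Of the 7 windows 3 belong to Nfkb2, and an overlapping pair of these shares a match. The windows of Rela and Nfkbib and 1 of those of Tnfaip3 held none. A match is a description of letters and not a bound site, and its absence says only that these letters are not in the window. The start regions of Nfkb2 (chr19:46304487-46304786, plus strand), Nfkbia (chr12:55492598-55492897, minus strand) and Nfkbib (chr7:28766595-28766894, minus strand) are printed to set a subunit and an inhibitor with matches beside an inhibitor without, all 3 of which fell in E0771 cells, with the matches in capitals.
Nfkb2: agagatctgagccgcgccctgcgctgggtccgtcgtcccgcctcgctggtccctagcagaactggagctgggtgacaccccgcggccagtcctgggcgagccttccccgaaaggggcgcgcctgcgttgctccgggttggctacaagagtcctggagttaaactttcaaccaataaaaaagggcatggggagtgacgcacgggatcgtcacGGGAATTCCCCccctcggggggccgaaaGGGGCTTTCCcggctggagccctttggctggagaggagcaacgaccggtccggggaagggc
Nfkbia: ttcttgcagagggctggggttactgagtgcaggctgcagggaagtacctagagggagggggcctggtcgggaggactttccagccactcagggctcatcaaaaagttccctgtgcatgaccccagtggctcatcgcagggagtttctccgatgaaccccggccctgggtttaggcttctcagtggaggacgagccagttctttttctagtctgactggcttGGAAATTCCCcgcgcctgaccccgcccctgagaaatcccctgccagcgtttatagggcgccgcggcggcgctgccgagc
Nfkbib: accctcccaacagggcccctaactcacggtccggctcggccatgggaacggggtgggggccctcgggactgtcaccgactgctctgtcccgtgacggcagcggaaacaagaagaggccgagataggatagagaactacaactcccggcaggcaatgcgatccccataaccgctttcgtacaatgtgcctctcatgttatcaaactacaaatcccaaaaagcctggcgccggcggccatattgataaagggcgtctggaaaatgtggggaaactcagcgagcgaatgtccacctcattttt
The Nfkb2 window shown holds a pair of overlapping matches at −39 and −38 and another at −11 from the start, and that of Nfkbia holds 1 at −29.

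Rela encodes p65, the transactivating partner of p50. It was between 7.59 and 7.80 log2 CPM in the 6 E0771 samples and between 7.60 and 7.98 in the 6 E0771-LG samples. The shPTN and shCtrl ranges overlapped in both lines. The differences were 0.06 (95% interval −0.13 to 0.24) in E0771 and −0.07 (95% interval −0.32 to 0.19) in E0771-LG cells, and neither was called (adjusted p = 0.689 and 0.668 by limma). In the tumors they were 0.08 ± 0.12 (SE) in 4T1 and −0.01 ± 0.17 (SE) in *MMTV-PyMT*.

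Rel encodes c-Rel, which is known best from lymphoid and myeloid cells. In E0771 cells it was between 3.49 and 3.89 log2 CPM with shCtrl and between 3.22 and 3.54 with shPTN. These ranges overlapped, and the difference of −0.29 ± 0.17 (SE) was not called (adjusted p = 0.251 by limma). In E0771-LG cells the difference was −0.16 ± 0.16 (SE), also with overlap. In 4T1 tumors Rel was at 2.60, 2.60 and 0.93 with C44 and at 0.98, 1.55 and 1.36 with 3B10, in log2 abundance. The first 2 C44 tumors stood above all others while C44 replicate 3 was the lowest of the 6, so the groups overlapped and the difference of −0.74 had an SE of 0.46 (unadjusted p = 0.147, adjusted p = 0.889 by limma). In *MMTV-PyMT* tumors Rel was at 2.98, 3.45 and 3.24 log2 CPM with C44 and at 3.18, 2.18 and 2.90 with 3B10. Here 3B10 replicate 2, with 83 reads, was the lowest, and the difference was −0.47 ± 0.32 (SE, adjusted p = 1.00 by limma).

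Rel is known from leukocytes, so their markers were read beside it in 4T1 tumors. All 6 general leukocyte markers were detected, and their summed abundance was 1243, 1131 and 1093 with C44 and 855, 937 and 691 with 3B10, with Itgb2, Cd53, Cd52 or Laptm5 the most abundant. The 5 markers of T and NK cells in the table summed to 92.8, 117 and 121 with C44 and to 66.5, 64.2 and 18.7 with 3B10, with Nkg7 or Cd3g on top. For both lists every 3B10 tumor was below every C44 tumor, with medians of −0.48 and −1.28, while no single marker was called. At an unadjusted p under 0.05 there were 3 of the 6 leukocyte and 5 of the 5 T and NK markers, against 6.27% of all genes. Of the other lists there were 6 of 10 myeloid, 3 of 4 neutrophil, 1 of 2 B cell, 4 of 6 epithelial, 2 of 6 fibroblast and 0 of 4 endothelial markers. The 10 myeloid markers (median −0.65), the 4 neutrophil markers (−0.68) and the 2 B cell markers (−0.67) had negative medians with overlap between the summed groups, and the 6 epithelial markers summed to 3415, 3797 and 3756 with C44 and to 5035, 4958 and 5331 with 3B10 (median 0.50), led by Krt18. The 6 fibroblast markers had a median of 0.26 and the 4 endothelial markers one of −0.25. In bulk tumor RNA, fewer cells of a type and less RNA per cell cannot be told apart, and the part of these shifts in the values of Rel, the other 9 genes and their targets was not tested. In *MMTV-PyMT* tumors the same lists had medians between −0.58 for B cell markers and 0.08 for endothelial markers, and the general leukocyte markers summed to 138, 141 and 109 CPM with C44 and to 171, 115 and 108 with 3B10, with Laptm5 on top and the groups overlapping.

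**Figure D2:**
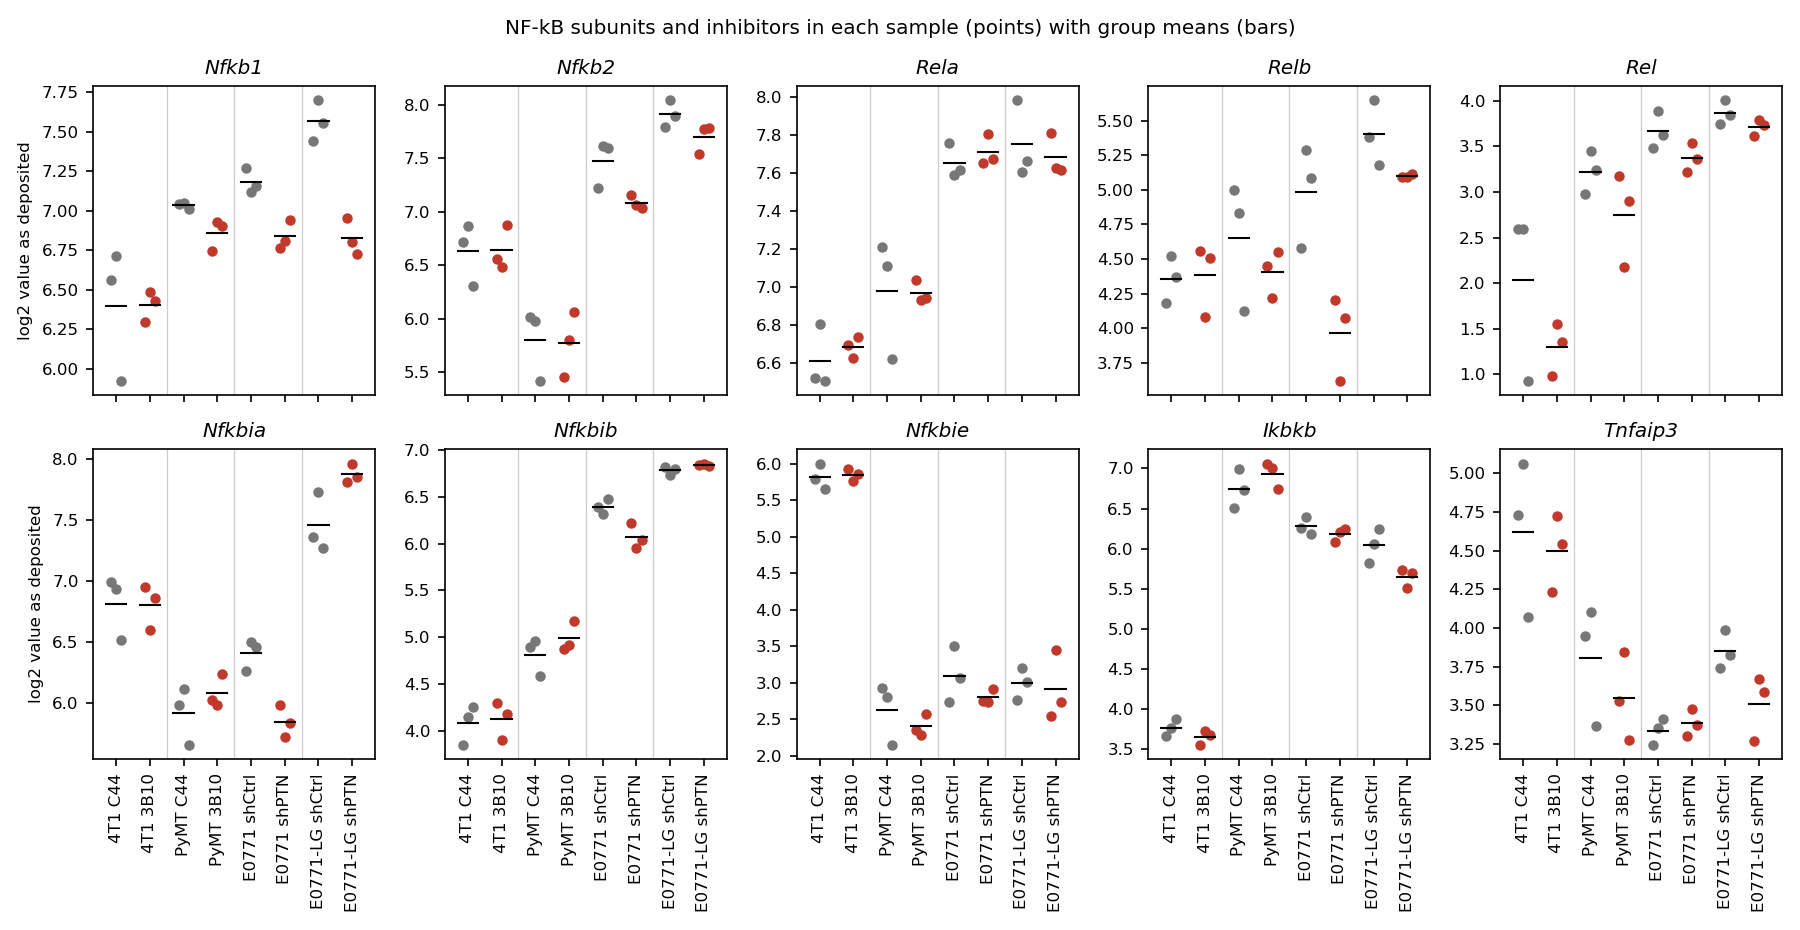
Value of each of the 10 genes in every sample (points, y axis in log2 as deposited, CPM scale except for 4T1) with the mean of each group of 3 (bars), control in gray and PTN-inhibited in red, 1 panel per gene. For Nfkb1 the shPTN points of both lines lie under the shCtrl points, and Nfkbia lies lower with shPTN in E0771 and higher in E0771-LG cells.

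Nfkbia encodes IκBα, the inhibitor that NF-κB itself induces, and is found at chr12:55489410-55492647, minus strand (ENSMUSG00000021025). In E0771 cells it was at 6.26, 6.51 and 6.46 log2 CPM with shCtrl and at 5.99, 5.73 and 5.84 with shPTN. Every shPTN sample was lower than every shCtrl sample. It fell to 67.9% of control, by −0.56 ± 0.11 (SE, adjusted p = 0.00459 by limma), and this stayed past the threshold in every alternative run, with adjusted p between 0.00217 and 0.0286. In E0771-LG cells Nfkbia was at 7.36, 7.73 and 7.27 with shCtrl and at 7.82, 7.96 and 7.86 with shPTN. All shPTN samples were higher, with shCtrl replicate 2 the closest to them. It rose by 0.42 ± 0.12 (SE, adjusted p = 0.0154 by limma), to 134% of the control level, and this was not past the threshold without E0771-LGshCtrl replicate 3 (adjusted p = 0.0710) or E0771-LGshPTN replicate 2 (0.0765), within a range of 0.000877 to 0.0765. In tumors Nfkbia differed by −0.01 ± 0.17 (SE) in 4T1 and by 0.16 ± 0.16 (SE) in *MMTV-PyMT*, with overlapping groups in both.

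Nfkbib encodes IκBβ and is found at chr7:28758251-28767512, minus strand (ENSMUSG00000030595). Over all annotated transcripts 14.5% of its exon bases also belong to Ccer2 and 1.94% to Sirt2, on the opposite strand. E0771 cells had it at 6.39, 6.31 and 6.47 log2 CPM with shCtrl and at 6.22, 5.95 and 6.03 with shPTN. The groups did not overlap. The fall of −0.32 ± 0.10 (SE, adjusted p = 0.0405 by limma) lay closest to the threshold among the 5, and it was lost with median-of-ratios scaling (adjusted p = 0.0553), quantile normalization (0.0790), no filter (0.0576), the fit over 24 samples (0.136) and when any single E0771 sample other than shPTN replicate 1 was left out (0.0638 to 0.171), within a range of 0.0155 to 0.171. In E0771-LG cells it was at 6.82, 6.74 and 6.80 with shCtrl and at 6.84, 6.85 and 6.82 with shPTN. These groups lay apart by a small step of 0.06 ± 0.09 (SE), which was not called (adjusted p = 0.633 by limma). In tumors the differences were 0.04 ± 0.18 (SE) in 4T1 and 0.17 ± 0.17 (SE) in *MMTV-PyMT*.

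Nfkbie encodes IκBε and was low in the cells, with 114 to 231 reads per sample. It was between 2.73 and 3.50 log2 CPM in E0771 and between 2.55 and 3.44 in E0771-LG cells. The shPTN and shCtrl ranges overlapped in both, and the differences of −0.30 ± 0.22 (SE) and −0.08 ± 0.26 (SE) were not called (adjusted p = 0.372 and 0.816 by limma). In tumors they were 0.03 ± 0.13 (SE) in 4T1 and −0.23 ± 0.30 (SE) in *MMTV-PyMT*.

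Ikbkb encodes IKKβ, the kinase of the canonical route, and is found at chr8:22659212-22706589, minus strand (ENSMUSG00000031537). In E0771-LG cells it was at 5.83, 6.06 and 6.25 log2 CPM with shCtrl and at 5.73, 5.52 and 5.70 with shPTN. The groups did not overlap, but shCtrl replicate 1 lay close to the highest shPTN sample. It fell to 75.8% of control, by −0.40 ± 0.13 (SE, adjusted p = 0.0246 by limma). It was lost without E0771-LGshCtrl replicate 3 (adjusted p = 0.118) or E0771-LGshPTN replicate 2 (0.111) or 3 (0.0574), within a range of 0.00322 to 0.118. In E0771 cells Ikbkb was between 6.08 and 6.40 with overlapping groups, and its difference of −0.10 ± 0.10 (SE) was not called (adjusted p = 0.476 by limma). In tumors it was −0.11 ± 0.15 (SE) in 4T1 and 0.19 ± 0.17 (SE) in *MMTV-PyMT*.

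Tnfaip3 encodes A20, the ubiquitin-editing enzyme that ends NF-κB signaling. In E0771-LG cells it was at 3.74, 3.99 and 3.82 log2 CPM with shCtrl and at 3.27, 3.67 and 3.59 with shPTN. The shPTN samples all lay below the shCtrl samples, and the difference of −0.34 ± 0.17 (SE) was not called (adjusted p = 0.125 by limma), although it passed with quantile normalization (adjusted p = 0.0311, range 0.0311 to 0.331). In E0771 cells it was between 3.24 and 3.47 with overlap, and differed by 0.05 ± 0.15 (SE). In 4T1 tumors it was at 4.73, 5.06 and 4.07 with C44 and at 4.23, 4.72 and 4.54 with 3B10, in log2 abundance. C44 replicate 3 was the lowest, as it was for Nfkb1, Nfkb2, Rela, Rel, Nfkbia and Nfkbie, so in 7 of the 10 genes. The differences in tumors were −0.12 ± 0.27 (SE) in 4T1 and −0.26 ± 0.27 (SE) in *MMTV-PyMT*.

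Whether the knockdown acted alike in both lines was tested by the interaction term of 1 limma fit over the 12 cell samples, the effect in E0771-LG minus that in E0771. Of the 10 genes, 3 had a higher value of this difference at an adjusted p under 0.05, against 18.3% of the 10600 genes tested, and 1 had a lower value, against 15.7%. These shares are large among all genes, and the counts are to be read beside them. The median difference was 0.16 over the 10 genes and 0.08 over all genes. For Nfkbia it was 0.98 ± 0.17 (SE, adjusted p = 0.000694 by limma), with all 3 shPTN samples lower in E0771 and all 3 higher in E0771-LG cells, and it stayed past the threshold in every alternative run, with adjusted p between 9.6e-05 and 0.00349. Relb fell more in E0771, by a difference of 0.72 ± 0.26 (SE, adjusted p = 0.0463 by limma). The shPTN samples were all lower in both lines. For Nfkbib, lower in E0771 and with a small step the other way in E0771-LG cells, the difference was 0.38 ± 0.13 (SE, adjusted p = 0.0298 by limma). Nfkb1 fell more in E0771-LG cells, with a difference of −0.40 ± 0.13 (SE, adjusted p = 0.0321 by limma) and all shPTN samples lower in both lines.

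The differences of Relb, Nfkbib and Nfkb1 were each no longer past the threshold when any of several single samples was left out. That of Relb was past the threshold only when the sample left out was E0771shCtrl replicate 1, E0771shPTN replicate 1 or E0771-LGshCtrl replicate 2, and its adjusted p was 0.0601 to 0.115 without any of the other 9. That of Nfkbib was kept without E0771shCtrl replicate 2 or replicate 1 of the other 3 groups, and had an adjusted p of 0.0511 to 0.0842 without any of the other 8. That of Nfkb1 was kept without replicate 1 of any group or E0771shPTN replicate 2, and had an adjusted p of 0.0565 to 0.0885 without any of the other 7. Median-of-ratios scaling ended the calls of Relb (0.0539) and Nfkbib (0.0660), quantile normalization that of Nfkb1 (0.0865), no filter (0.0624) and eBayes that was not robust (0.0511) that of Relb, and the fit over 24 samples all 3 (0.105, 0.147 and 0.164). Over all their alternatives the adjusted p ranged from 0.0115 to 0.115 for Relb, from 0.0109 to 0.147 for Nfkbib and from 0.0135 to 0.164 for Nfkb1. Ikbkb, not called in this test at −0.29 ± 0.16 (SE, adjusted p = 0.166 by limma), passed it without E0771-LGshCtrl replicate 1 (adjusted p = 0.0417), so the fall of Ikbkb in E0771-LG cells is not shown to differ from E0771.

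**Figure D3:**
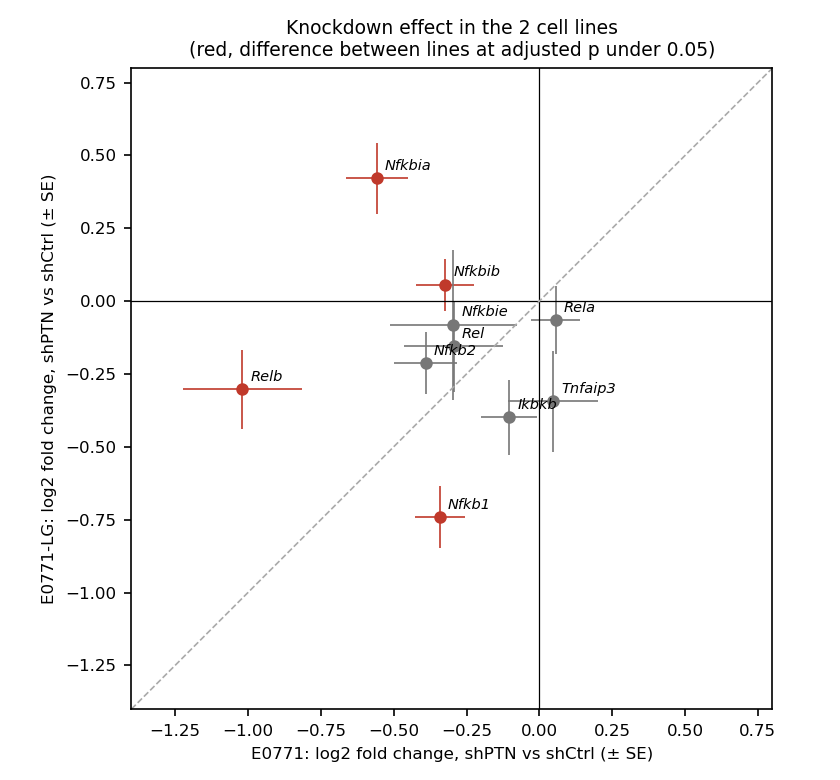
Log2 fold change with shPTN in E0771 cells (x axis) against that in E0771-LG cells (y axis) for the 10 genes, with SE as lines and equal effects on the dashed diagonal. Red marks the 4 genes whose effect differed between lines at an adjusted p under 0.05, of which Nfkbia lies at −0.56 and 0.42.

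The lines also differed before any knockdown. Comparing E0771-LGshCtrl with E0771shCtrl in the same fit, 5 of the 10 genes were higher in E0771-LG, against 20.5% of the 10600 genes tested, and 0 were lower, against 37.3%. The median difference was 0.39 over the 10 genes and −0.15 over all genes. The groups lay apart for 5 of the 10 genes, all higher in E0771-LG. Of all 10600 genes they lay apart for 2479 that were higher and 4233 that were lower. With median-of-ratios scaling the median of all genes moved by 0.16 and with quantile normalization by 0.19, and the share of called genes that were higher went from 35.5% to 50.7% and 51.0%, so sizes in this comparison depend on the scaling. Nfkbia was 1.05 ± 0.12 (SE, adjusted p = 3.16e-06 by limma) higher in E0771-LG, in 3 of 3 samples above all E0771 samples. Tnfaip3 was higher by 0.52 ± 0.16 (SE, adjusted p = 0.0107 by limma), Nfkb2 by 0.43 ± 0.11 (0.00376), Nfkbib by 0.39 ± 0.09 (0.00155) and Nfkb1 by 0.39 ± 0.09 (0.00272), each with no overlap. These directions held with both other scalings, where 6 (median-of-ratios) and 7 (quantile) of the 10 genes were called. Of all 10600 genes, 3056 and 2945 were then called higher, in place of 2178, and 2966 and 2830 lower, in place of 3958. The fit over 24 samples did not call Nfkb2 (0.0525, range 0.000255 to 0.0525) or Tnfaip3 (0.0664, range 0.000172 to 0.0664). Relb, at 0.42 ± 0.19 (SE, adjusted p = 0.0672 by limma), passed without E0771shCtrl replicate 2 (adjusted p = 0.0254), E0771shPTN replicate 2 (0.0409) or E0771-LGshCtrl replicate 3 (0.0432), and with median-of-ratios scaling (0.0122) or quantile normalization (0.0050), within a range of 0.0050 to 0.330. Rel, at 0.20 ± 0.16 (SE, adjusted p = 0.289 by limma), passed with quantile normalization (adjusted p = 0.00832, range 0.00832 to 0.673). Ikbkb, at −0.24 ± 0.11 (SE, adjusted p = 0.0883 by limma), passed without E0771-LGshCtrl replicate 3 (adjusted p = 0.0282, range 0.0282 to 0.578). This comparison uses the same 6 shCtrl samples as the knockdown comparisons, so the values of the comparisons are not independent.

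Levels of different genes were compared per length of their exons. In E0771shCtrl cells Rela was the most abundant at 74.2 ± 4.69 CPM per kb (SD, n = 3), followed by Nfkbia at 54.0 ± 4.74, and these did not overlap. Nfkb2 (42.5), Nfkbib (39.5) and Nfkb1 (35.2 CPM per kb) came next, and neighbors in this order overlapped. Ikbkb (17.2) and Relb (14.6 CPM per kb) overlapped too, and Nfkbie (3.59), Tnfaip3 (2.19) and Rel (1.71 CPM per kb) were the lowest, each apart from the next. In E0771-LGshCtrl cells Nfkbia stood first at 112 ± 19.7 CPM per kb (SD, n = 3), above Rela at 79.7 ± 11.7 with no overlap, and the 3 lowest genes were the same, with Nfkbie (3.28) and Tnfaip3 (3.14 CPM per kb) overlapping. In E0771-LGshPTN cells Nfkbia reached 149 CPM per kb, beside 75.8 for Rela. In *MMTV-PyMT* C44 tumors Rela (47.2), Nfkbia (38.8) and Nfkb1 (31.8 CPM per kb) overlapped as neighbors, and Rel was again the lowest at 1.26. In 4T1 C44 tumors, on the length-normalized abundance as deposited, Nfkbia (113), Nfkb2, Rela (97.6), Nfkb1 (86.2) and Nfkbie (56.2) overlapped as neighbors, so Nfkbie was not among the low genes there, and Rel was the lowest at 4.16.

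**Figure D4:**
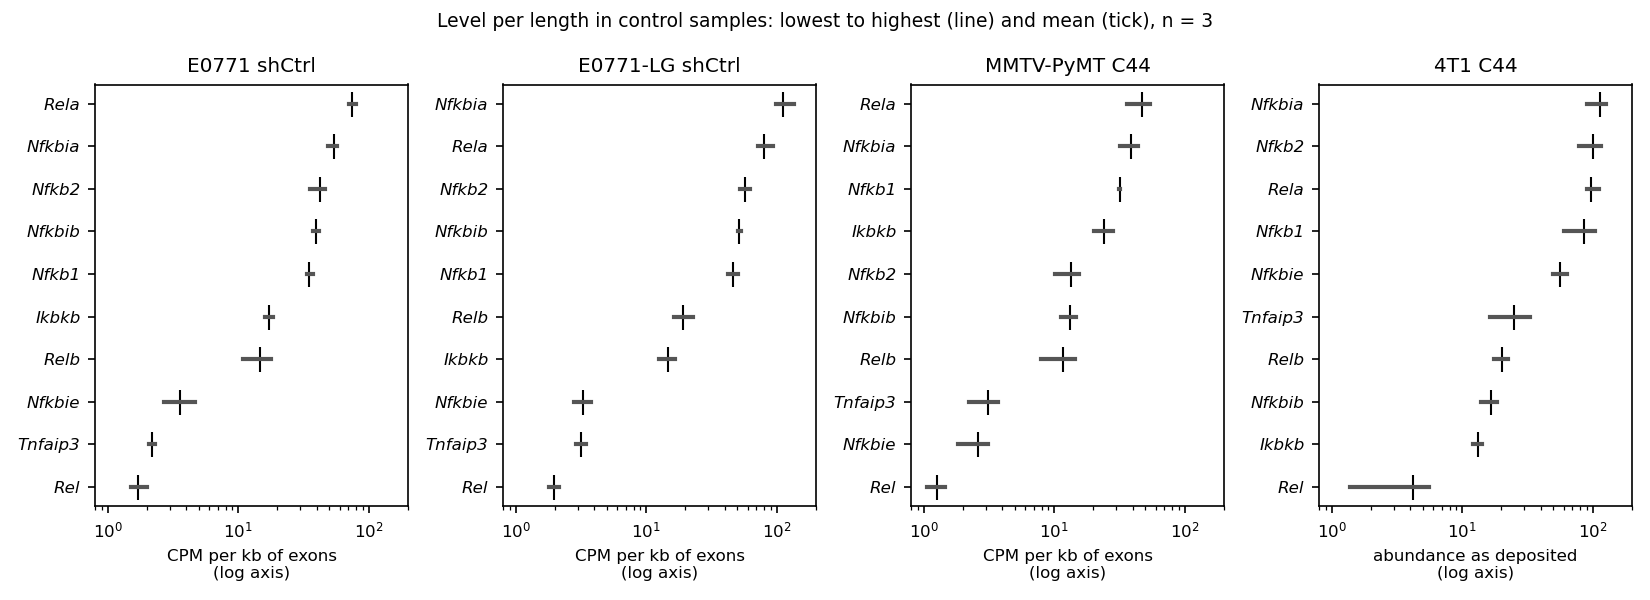
Level per length of the 10 genes in the control samples of each experiment on a log axis, in CPM per kb of exons or, for 4T1, in the abundance as deposited, with the range of the 3 samples (line) and their mean (tick). Rel is the lowest gene in all 4 panels, and Rela or Nfkbia the highest.

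Other genes of the pathway were taken as 4 lists, and their counts are to be read against the shares of all genes. In E0771 cells 11.7% of all genes fell and 8.89% rose, and for E0771-LG these shares were 22.1% and 24.3%. The list of further kinases also holds the scaffold gene Ikbkg and the adaptor genes Tab1, Tab2 and Tab3. Of its 9 genes tested, 2 fell and 0 rose in E0771 cells (median −0.07). Ikbkg, which encodes the scaffold NEMO, fell by −0.37 ± 0.10 (SE, adjusted p = 0.0244 by limma), from 6.76, 7.05 and 7.02 log2 CPM to 6.63, 6.49 and 6.62, and Tab3, an adaptor of the kinase TAK1, fell by −0.44 ± 0.13 (SE, adjusted p = 0.0400 by limma). Both were lower in 3 of 3 shPTN samples. In E0771-LG cells 4 of the 9 fell and 0 rose (median −0.40, against 0.05 over all genes). Map3k7, which encodes TAK1, fell by −0.50 ± 0.10 (SE, adjusted p = 0.00264 by limma) and Chuk, which encodes IKKα, fell from 6.50, 6.40 and 6.45 log2 CPM to 6.03, 5.93 and 6.06. Every shPTN sample of Chuk lay below every shCtrl sample, with a fall of −0.45 ± 0.10 (SE, adjusted p = 0.00378 by limma). Tab2 (−0.40 ± 0.09) and Ikbke (−0.97 ± 0.31) were the others, with adjusted p of 0.00517 and 0.0266 by limma and no overlap between groups. So in E0771-LG cells the genes of both catalytic IKK subunits, Chuk and Ikbkb, were called lower. The call of Ikbkb was lost without E0771-LGshCtrl replicate 3 or E0771-LGshPTN replicate 2 or 3, as given above.

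Of the 26 receptor and adaptor genes tested, 5 fell and 2 rose in E0771 cells (median −0.21, against 11.7% lower and 8.89% higher over all genes), and 10 fell and 2 rose in E0771-LG cells (median −0.04, against 22.1% and 24.3%). Tlr3, a receptor for double-stranded RNA, fell in both lines, by −0.87 ± 0.18 (SE, adjusted p = 0.0080 by limma) in E0771 and by −1.21 ± 0.17 (SE, adjusted p = 0.000326 by limma) in E0771-LG cells, in 3 of 3 samples each. In E0771, Traf1 fell by −1.09 ± 0.29 (SE, adjusted p = 0.0239 by limma), while the receptor genes Il1r1 (0.70 ± 0.11, adjusted p = 0.00205 by limma) and Tnfrsf1b (0.63 ± 0.11, 0.00340) rose. All 3 were called in the other direction in E0771-LG cells: Traf1 rose by 0.55 ± 0.16 (SE, adjusted p = 0.0149 by limma), and Il1r1 (−0.68 ± 0.13, 0.00163) and Tnfrsf1b (−0.36 ± 0.13, 0.0393) fell. Their effects differed between lines by 1.63, −1.38 and −0.99 (adjusted p = 0.00284, 6.24e-05 and 0.000889 by limma), and their groups did not overlap in either line. In E0771-LG, Traf6, the ubiquitin ligase downstream of the IL-1 and Toll-like receptors, fell from 5.90, 5.55 and 5.74 log2 CPM to 4.68, 4.66 and 4.79. The shPTN samples were close to each other and far below the shCtrl samples, with a fall of −1.02 ± 0.13 (SE, adjusted p = 0.000164 by limma). Tlr4 (−0.78 ± 0.13) and Tlr2 (−0.68 ± 0.18) fell as well, with adjusted p of 0.000675 and 0.0095 by limma.

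A list of 15 other regulators tested holds inhibitors and also Rnf31, Sharpin and Rbck1, the subunits of the linear ubiquitin ligase, which is known to promote NF-κB activation. Of these 15 genes, 2 fell and 1 rose in E0771 (median −0.07, against 11.7% lower and 8.89% higher over all genes), and 2 fell and 4 rose in E0771-LG cells (median 0.05, against 22.1% and 24.3%). Nfkbiz, an atypical IκB, fell by −0.65 ± 0.17 (SE, adjusted p = 0.0190 by limma) in E0771 cells, and Rnf31, which encodes the catalytic subunit of that ligase, by −0.51 ± 0.12 (SE, adjusted p = 0.0123 by limma). Pdlim2 rose there by 0.53 ± 0.14 (SE, adjusted p = 0.0212 by limma). In E0771-LG cells the deubiquitinase gene Cyld fell by −0.85 ± 0.12 (SE, adjusted p = 0.000319 by limma), while Commd1 rose by 0.80 ± 0.15 (SE, adjusted p = 0.00153 by limma), Sharpin by 0.64 ± 0.13 (0.00267) and Tax1bp1 by 0.61 ± 0.12 (0.00248). In each of these 7 the groups did not overlap. Nfkbiz (−0.47 ± 0.12, adjusted p = 0.00923 by limma) and Pdlim2 (0.60 ± 0.14, 0.00492) were called in E0771-LG as well, in the same direction as in E0771.

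Known NF-κB target genes were tested for 27 of the 40 listed in E0771 and 33 in E0771-LG cells. In E0771, 8 fell and 1 rose (median −0.28, against −0.03 over all genes, of which 11.7% fell and 8.89% rose). Sele, which encodes E-selectin, fell from 4.46, 5.61 and 4.92 log2 CPM to 3.26, 3.25 and 3.54 (−1.65 ± 0.25, adjusted p = 0.00171 by limma), Ccl2 by −1.57 ± 0.24 (0.00284) and Lcn2 by −2.04 ± 0.53 (0.0243), and Gadd45b rose by 1.62 ± 0.24 (0.00125). In E0771-LG, 14 fell and 2 rose (median −0.59, against 0.05 over all genes, of which 22.1% fell and 24.3% rose). Ptgs2, which encodes COX-2, fell from 5.15, 5.56 and 5.03 to 2.71, 2.63 and 3.10 log2 CPM (−2.43 ± 0.19, adjusted p = 2.23e-05 by limma), and Saa3 (−1.86 ± 0.30, 0.00083) and Mmp9 (−1.82 ± 0.18, 6.12e-05) fell as well. Ccl20 rose by 1.93 ± 0.33 (0.00195). The groups of each named target did not overlap. In the shCtrl samples 24 of 33 targets were higher and 3 lower in E0771-LG than in E0771 (median 1.22). Over all genes the median was −0.15, with 20.5% higher and 37.3% lower. Only 27 targets passed the filter in E0771, and others, Ptgs2 among them, passed it through E0771-LG, where they were high. These add to the count and the median by construction, so no conclusion is drawn from either. With the knockdown, the target list held more called falls than rises in both lines. Nfkbia, a target by textbook knowledge that is not in that list, fell in E0771 and rose in E0771-LG cells.

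**Figure D5:**
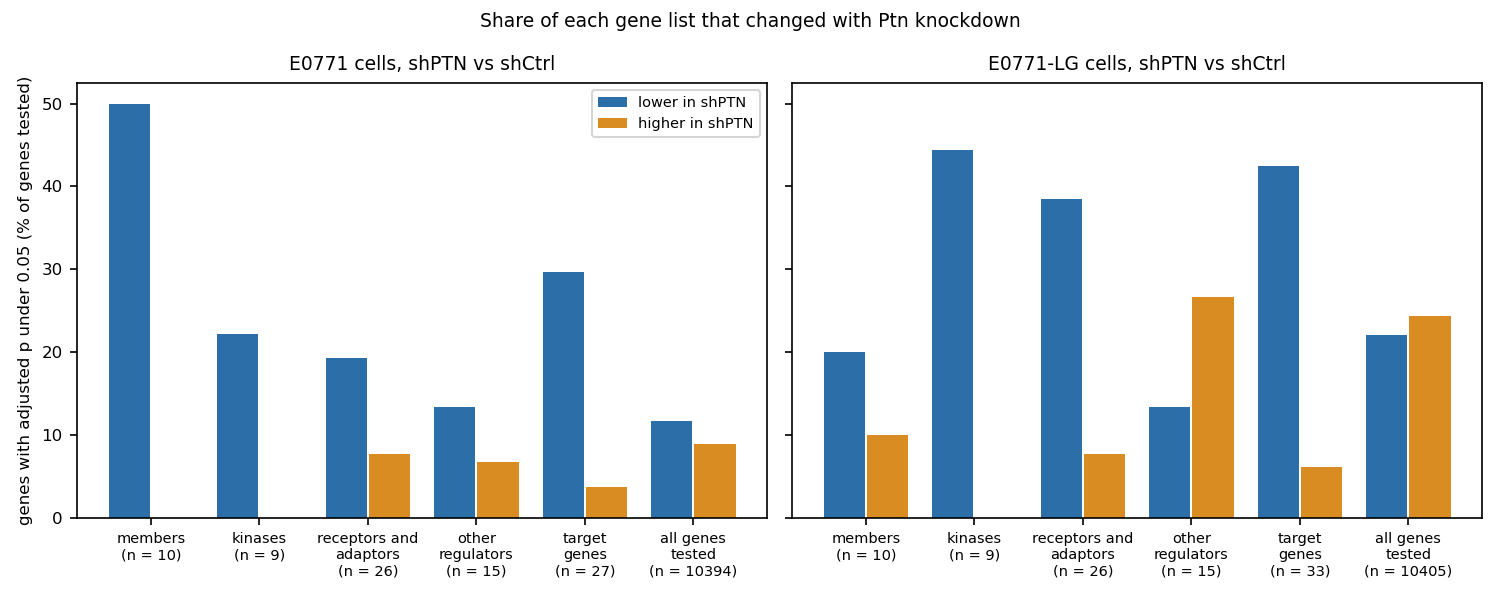
Share of the tested genes of each list that were called by limma as lower (blue) or higher (orange) in shPTN samples, in percent, for E0771 (left) and E0771-LG cells (right), beside the share of all genes tested. In E0771, 5 of 10 NF-κB subunit and inhibitor genes fell, against 11.7% of all genes, and 2 of 10 without E0771shCtrl replicate 3.

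In tumors no gene of these lists was called by limma, and at an unadjusted p under 0.05 there were 1 kinase, 1 receptor or adaptor, 0 other regulator and 8 of 35 target genes in 4T1, against 6.27% of all genes, and 0, 1, 0 and 4 of 30 in *MMTV-PyMT*, against 2.70%. In 4T1 the leukocyte markers given above were lower at the same threshold in larger shares, and their part in the target counts was not tested. The smallest p-values in 4T1 belonged to Cd83 (−0.99 ± 0.16, adjusted p = 0.407 by limma) and Bcl2a1b (−0.71 ± 0.12, 0.461) among targets, Tnfrsf1b (−0.48 ± 0.15) and Tlr4 (−0.60 ± 0.29) among receptors, Ikbke (−0.51 ± 0.17) and Map3k14 (0.28 ± 0.17) among kinases, and Bcl3 (0.27 ± 0.15) and Tnip1 (−0.33 ± 0.19) among other regulators. Cd83 is a marker of mature dendritic and B cells, and it was at the lowest value of the sample in 12 of 12 cell samples. In *MMTV-PyMT* they belonged to Lcn2 (−0.77 ± 0.21), Nuak2 (0.74 ± 0.21), Tnfrsf1b (−1.19 ± 0.49), Tnfrsf11a (0.41 ± 0.20), Rbck1 (0.31 ± 0.14), Rnf31 (−0.21 ± 0.14), Tab1 (−0.23 ± 0.22) and Ikbkg (0.12 ± 0.12), each with an adjusted p of 1.00 by limma.

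Marker genes of other cell types moved with the knockdown in the cells too. Over all genes, 11.7% fell and 8.89% rose in E0771, and 22.1% fell and 24.3% rose in E0771-LG. The small counts of called markers are to be read beside these shares. In E0771, all 3 tested of 6 fibroblast markers rose, and their list summed to 67.7, 91.8 and 79.7 CPM with shCtrl, led by Pdgfra, and to 309, 263 and 308 CPM with shPTN, led by Col3a1, while Dcn, Lum and Postn were under 1 CPM. The sums of the same list went the other way in E0771-LG, from 75.8, 116 and 91.6 CPM with shCtrl to 51.5, 51.8 and 60.5 CPM with shPTN. Of 4 tested there, 2 were called lower and 1 higher. Col1a1, tested there, was under 1 CPM in every shPTN sample and passed the filter only through the shCtrl samples, so its direction was set by the filter. Of the 3 general leukocyte markers tested in E0771, 2 rose, with sums of 34.7, 39.8 and 34.7 CPM with shCtrl and 68.4, 51.4 and 60.7 CPM with shPTN. In E0771-LG, all 3 tested of 6 epithelial markers rose, with sums of 158, 204 and 164 CPM with shCtrl and 424, 564 and 515 CPM with shPTN, led by Krt8. Krt18, among the 3, was under 1 CPM in every shCtrl sample and passed the filter only through the shPTN samples, so its direction was set by the filter. Of the 3 leukocyte markers tested in E0771-LG, 1 was called lower, and the other 2 lay above zero and were not called (median of the 3, 0.38). The one called was the most abundant, Laptm5, at 82.6 to 87.9 CPM with shCtrl and 43.1 to 46.8 CPM with shPTN. Of the myeloid markers, 1 of 3 tested was called higher in E0771. The other 2 lay below zero and were not called (median of the 3, −0.63). The list summed to 17.9, 33.0 and 27.0 CPM with shCtrl and to 50.1, 36.2 and 42.0 CPM with shPTN, led by Lyz2 in every shPTN sample. In E0771-LG, 2 of 4 were called higher and 2 lower. Cd3d, the only marker of T and NK cells tested in E0771-LG, was under 1 CPM in every shCtrl sample. It passed the filter only through the shPTN samples, so the direction of its call, higher with shPTN by 1.78, was set by the filter. The part of these shifts in the changes of NF-κB genes was not tested, and the defining leukocyte marker Ptprc was under 1 CPM in every cell sample.

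The genes most like Nfkb1 and Nfkbia, which changed in both lines, were taken across the 12 cell samples, as a description of samples that share 4 groups and their differences. For Nfkb1 these were Ern1 (Pearson r = 0.964), Rnf125 (r = 0.949) and Ulbp1 (r = 0.942). Ern1 encodes the stress sensor IRE1α, and it was highest in E0771-LGshCtrl, between 6.36 and 6.52 log2 CPM, and between 5.18 and 5.32 in the shPTN samples of both lines. For Nfkbia they were Mtrf1l (r = 0.988), Mthfd2 (r = 0.987) and Fam83g (r = 0.986). Mthfd2 encodes a mitochondrial folate enzyme, and it was lowest in E0771shPTN, between 6.98 and 7.07 log2 CPM, and highest in E0771-LGshPTN, between 7.92 and 8.02.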

How the data were processed

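RNA sequencing was performed on tumors and cell lines. Per the labels and the study's methods, the authors sequenced paired ends on an Illumina HiSeq, aligned and assembled reads on mm10 by HISAT2 and StringTie, and used Rsubread (featureCounts in the labels) for the differential analysis. What the authors deposited is a single table, 12091 genes by 24 samples, in log2 units, and which of these steps gave the values of each sample is not stated. In 18 samples 100% of values came out as whole reads (tolerance 0.02) of a log2 CPM with an offset of 0.5. The 4T1 values are length-normalized: their difference from E0771-LG values had a slope of −1.18 on log2 exon length, against 0.09 for *MMTV-PyMT* and 0.04 for E0771. The depth of the 4T1 samples is unknown.

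Each experiment of 6 samples was fitted with limma 3.58.1 in R 4.3.3 (lmFit, eBayes with trend and robust), with Benjamini-Hochberg adjustment over all genes tested. The design's other clause, for a file of raw counts, was not applied, since the deposited values are log2. For the 18 samples with recovered reads, voom on these reads was an alternative, and it called the same of the 10 genes. Interaction and control-line differences came from 1 fit over 12 cell samples. The fit was tested on simulated data, with changes larger than those of the 10 genes. Replicates of a group correlated at 0.982 to 0.990 across genes in cells and 0.967 to 0.988 in tumors. The 10 genes and the lists (kinases, receptors and adaptors, other regulators, targets, cell markers) were chosen with earlier results of these data known. Named were all 10 genes and Ptn. From each list at most 4 called genes with the largest change and no overlap between groups were named, or, with no call, the 2 with the smallest p. For each of the 10 genes called in both lines, the 3 with the highest Pearson r were named. Outside this rule, the E0771-LG values of Traf1, Il1r1, Tnfrsf1b, Nfkbiz and Pdlim2, and the remarks on Cd83, Cd3d, Krt8, Laptm5 and other markers, were chosen after their values were seen. Positions are from GENCODE M21 (GRCm38). Levels per length use its basic transcripts, and exon overlaps use all transcripts. Tools were Python 3.11.15, pandas 2.3.3 and matplotlib 3.10.9. Alternatives were other filters, an added 1, other scalings, voom weights, 1 fit over 24 samples, eBayes that was not robust, a replicate block and leaving out each sample.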

Additional observations from a re-analysis of the deposited data

Results flagged for a closer look

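The effect of shPTN differed between E0771-LG and E0771 cells for 4 of the 10 genes, by the interaction term of the limma fit over 12 samples. The effect in E0771-LG minus that in E0771 was 0.98 on the log2 scale for Nfkbia, 0.72 for Relb, 0.38 for Nfkbib and −0.40 for Nfkb1. Over all genes tested the term was called higher for 18.3% and lower for 15.7%, so a count of 4 of 10 is near the share among all genes. The call of Nfkbia was kept in every alternative run, and those of Relb, Nfkbib and Nfkb1 were each lost in several, among them the fit over 24 samples and most runs with a single sample left out.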

How the results depend on the processing

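No alternative changed the sign of a called effect of the 10 genes, and the tumors had 0 of 10 called in every alternative, voom weights included for *MMTV-PyMT*. The number called in E0771 cells went from 5 to 3 with no filter and to 2 in the fit over 24 samples, and was 2 to 5 with single samples left out. In E0771-LG cells it was 3, and 1 to 4 with single samples left out, with 1 left without E0771-LGshPTN replicate 2. The line difference had 4 called, 2 with median-of-ratios scaling, 1 in the fit over 24 samples and 1 to 4 with single samples left out. The control lines had 5 called, 3 in the fit over 24 samples and 5 to 7 with single samples left out. The cause of these changes was not tested.

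Over all genes, the fit over 24 samples called 999 in E0771 in place of 2140, 2382 in place of 3602 for the line difference (62.0% higher in place of 53.9%), and 6 and 5 in 4T1 and *MMTV-PyMT* tumors in place of 0. That fit also tested more genes (12090), so 2 choices changed at once. With no filter alone (12091 genes), 1874 were called in E0771 and 3580 for the line difference. The count in E0771 was 1268 without E0771shCtrl replicate 2, 1164 without E0771shCtrl replicate 3 and 1220 without E0771shPTN replicate 3, and that in E0771-LG was 3206 without E0771-LGshPTN replicate 2 in place of 4826.

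Uncalled differences near zero changed sign. For Nfkb1 in 4T1 this was −0.0028 with median-of-ratios scaling and −0.0245 with quantile normalization, which also gave −0.0145 for Nfkb2 in 4T1 and 0.0365 for Rela in E0771-LG. With single samples left out the ranges in 4T1 were −0.24 to 0.16 for Nfkb1, −0.15 to 0.13 for Nfkb2, −0.0620 to 0.18 for Relb, −0.16 to 0.0917 for Nfkbia, −0.0732 to 0.16 for Nfkbib, −0.0506 to 0.12 for Nfkbie and −0.40 to 0.10 for Tnfaip3. They were −0.22 to 0.13 for Nfkb2 and −0.19 to 0.10 for Rela in *MMTV-PyMT*, and −0.14 to 0.0512 for Rela and −0.35 to 0.10 for Nfkbie in E0771-LG.

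With the replicate block the counts were 0 in both tumor models, 5 in E0771, 3 in E0771-LG and 5 between control lines, and 3 for the line difference, where Relb was not called (adjusted p = 0.0623 by limma). Same-numbered samples deviated from their group means with r, across genes, of −0.33, 0.44 and −0.25 in 4T1 and −0.04, 0.13 and 0.21 in *MMTV-PyMT*. The r values were −0.03, 0.14 and −0.04 in E0771 and 0.16, 0.24 and −0.12 in E0771-LG. With 3 samples per group these values cannot decide whether the numbers pair the samples.

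Group sizes of 3 limit every test. The low read counts of Nfkbie, Rel and Tnfaip3 limit precision in cells and *MMTV-PyMT* tumors, and the depth of 4T1 tumors is unknown.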
